A study of Mus musculus with 30 samples.

Results

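The actin cytoskeleton genes of smooth and striated muscle described here were 9 in number: the actins Acta1, Acta2, Actc1 and Actg2, the actin-binding genes Tagln and Cnn1, the myosin light chain gene Myl9, and the tropomyosins Tpm1 and Tpm2. They were found by their symbols among 25626 genes with introns, and all 9 were present. The list was drawn up with differences among the embryonic stem cell groups already known, so the stem cell values below chose the members. They, and the counts of calls on them, are given as a description and support nothing. Polyadenylated RNA was sequenced at 3 stages of neuronal differentiation: CGR8 mouse embryonic stem cells (ESC), the retinoic acid-treated embryoid bodies they form (EB8), and glutamatergic neurons after 7 days in vitro (DIV7). Each stage was sampled in 4 clonal CRISPR-Cas9-edited lines and the line they came from. Puf60.mEx5.HOM is labelled as making Puf60, a splicing factor, without its exon 5 from both alleles. In Puf60.pEx5.HOM that exon is labelled as constitutive on both alleles, and in Puf60.pEx5.HET from a single allele. Rbm38KO carries a deletion within the gene of the RNA-binding protein Rbm38. WT is the unedited parental line. Every one of the 15 groups had 2 libraries, replicates A and B, giving 30 libraries.

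Muscle actins polymerise into the thin filaments along which myosin pulls, and tropomyosin lies along those filaments and sets which myosins and actin-binding proteins reach them. Acta2, Tagln, Cnn1 and Myl9 are the usual smooth muscle and myofibroblast genes, many of them driven by serum response factor with myocardin-family partners through CArG boxes, and they are also transcribed outside muscle in adherent, spread cells. Tropomyosin genes make many isoforms through alternative starts, mutually exclusive internal exons and alternative last exons, and isoform choice differs between muscle, fibroblasts and brain.

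The splicing results below turn on the tropomyosin exons, so their sequences are shown first. Tpm1 (chr9:67022590-67049406, minus strand) and Tpm2 (chr4:43514711-43523765, minus strand) each have a pair of 76-nt internal coding exons used as alternatives, and Tpm1 has a further pair of 126 nt near its upstream start. Sequences are from the GENCODE vM21 annotation of GRCm38, on the gene's strand. Within each pair, capitals mark the bases that differ between its exons, 33 in the Tpm1 76-nt pair and 35 in the Tpm2 76-nt pair.
Tpm1 upstream 76-nt exon, chr9:67032466-67032541: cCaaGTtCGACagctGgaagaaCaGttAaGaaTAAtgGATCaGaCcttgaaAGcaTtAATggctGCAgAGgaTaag
Tpm1 downstream 76-nt exon, chr9:67031951-67032026: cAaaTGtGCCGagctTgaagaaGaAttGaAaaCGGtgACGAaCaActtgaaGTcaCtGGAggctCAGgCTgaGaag
Tpm2 upstream 76-nt exon, chr4:43519003-43519078: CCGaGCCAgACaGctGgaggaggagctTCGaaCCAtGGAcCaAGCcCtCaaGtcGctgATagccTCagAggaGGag
Tpm2 downstream 76-nt exon, chr4:43518644-43518719: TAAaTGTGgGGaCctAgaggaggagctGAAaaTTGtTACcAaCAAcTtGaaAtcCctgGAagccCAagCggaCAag
The upstream exons of the 2 genes shared 49 of 76 bases and the downstream exons 56 of 76, against 43 of 76 within the Tpm1 pair and 41 of 76 within the Tpm2 pair. Each exon was therefore closer in sequence to its counterpart in the other gene than to its own partner.
Tpm1 upstream 126-nt exon, chr9:67048124-67048249: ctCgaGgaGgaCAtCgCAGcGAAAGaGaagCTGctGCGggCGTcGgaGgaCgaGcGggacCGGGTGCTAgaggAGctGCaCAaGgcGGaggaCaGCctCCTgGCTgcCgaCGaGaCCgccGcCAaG
Tpm1 downstream 126-nt exon, chr9:67047786-67047911: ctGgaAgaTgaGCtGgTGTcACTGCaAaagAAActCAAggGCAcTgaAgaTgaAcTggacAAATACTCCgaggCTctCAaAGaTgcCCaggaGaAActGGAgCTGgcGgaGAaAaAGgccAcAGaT
The 126-nt pair differed at 66 bases. A further exon with a changed inclusion was a 79-nt coding exon of Tpm1 that lies between the 76-nt pair and the distal last exon.
Tpm1 79-nt exon, chr9:67029664-67029742: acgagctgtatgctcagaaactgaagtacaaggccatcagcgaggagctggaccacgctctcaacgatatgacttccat

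The ESC libraries held 28375996 to 38571969 spliced reads, the EB8 libraries 26152711 to 30675968, and the DIV7 libraries 23204150 to 28655479. The labels were checked on the edited genes. The 51-nt Puf60 exon was included in 7.49 to 13.01% of transcripts in the Puf60.mEx5.HOM libraries, 93.15 to 98.97% in Puf60.pEx5.HOM, 49.16 to 64.87% in Puf60.pEx5.HET, 22.91 to 48.4% in Rbm38KO and 20.71 to 43.95% in WT. Its inclusion was thus lowest in Puf60.mEx5.HOM but above 0 in every library, on 66 to 162 inclusion reads, where the label would have it at 0. In Rbm38KO, Rbm38 was at 0 CPM at every stage (CPM are spliced reads scaled to library size), against 85.2 CPM in WT at ESC, 39.5 at EB8 and 9.78 at DIV7. Independent clones are mentioned for the series, yet no label ties a library to its clone, and every p-value therefore reflects library-to-library spread alone, which may be partly technical. Muscle regulators were near 0: Myocd averaged 0.0142 CPM in WT at EB8 and 0.257 in WT at ESC, and Myod1 and Myog averaged 0.069 and 0.0514 CPM in WT at ESC. In these bulk libraries fewer cells expressing a gene and less of its RNA per cell cannot be told apart.

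In WT all 8 members that could be measured from spliced reads were highest at ESC, and Actg2, for which nearly all reads lay in 1 junction, is described on its own. In Puf60.pEx5.HOM this held for 4 of the 8: Acta1 and Acta2 averaged most at DIV7, at 2.40 and 3.53 CPM, and Actc1 and Myl9 at EB8, at 0.753 and 6.08 CPM, and in Rbm38KO for 7 of the 8, with Myl9 at 5.64 CPM at EB8. The last Acta1 junction, 5 mismatches from the cytoplasmic actin gene Actb, held 254 reads over the DIV7 libraries, against 74 in its first 3 junctions. The part of that junction in the Acta1 order of stages was not tested. On the authors' RPKM scale (1 value per group, corrected for gene length and library size, so that genes can be compared), Tpm1 led in WT with 274 at ESC, 46.6 at EB8 and 81.5 at DIV7. Tagln, an actin-binding protein of smooth muscle, had 109.5, 1.45 and 2.76 RPKM in WT over the same stages. Tpm2 had 51.1, 9.56 and 2.47 RPKM. The order below them at ESC was Acta2, the smooth muscle alpha-actin, with 20.9 RPKM, then Cnn1, which encodes calponin, with 13.9, Myl9, the regulatory light chain of smooth and non-muscle myosin, with 11.7, Acta1, the skeletal alpha-actin, with 6.93, Actc1, the cardiac alpha-actin, with 3.43, and Actg2, the enteric smooth muscle gamma-actin, with 0.21. At EB8 in WT 6 of these 9, all but Tpm1, Tpm2 and Myl9 at 4.18, were at or below 1.45 RPKM. The RPKM values are authors' group values without a spread, so no order between neighbours was tested.

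Spliced reads, those across exon-exon junctions, gave the level in each library in CPM. In WT at ESC Tagln had 119 and 200 CPM (replicates A and B), at EB8 1.56 and 3.25, and at DIV7 7.20 and 1.36. Tpm1 had 356 and 515 CPM at ESC, 61.5 and 72.1 at EB8, and 121.5 and 119.0 at DIV7. Acta2 had 37.9 and 60.8 CPM at ESC, 1.62 and 2.63 at EB8, and 8.91 and 1.95 at DIV7. The ESC libraries of WT lay above all WT libraries of the later stages for these genes, and replicate B exceeded A at ESC for each of them. Cnn1 had 17.3 and 29.9 CPM at ESC, against 0.795 and 1.50 at EB8 and 0.356 and 0.771 at DIV7. Tpm2 had 79.6 and 99.5 CPM at ESC, 16.5 and 21.3 at EB8, and 7.12 and 2.97 at DIV7. Both Tpm2 and Cnn1 were thus lower at each later stage, with no overlap between stages.

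**Figure D1:**
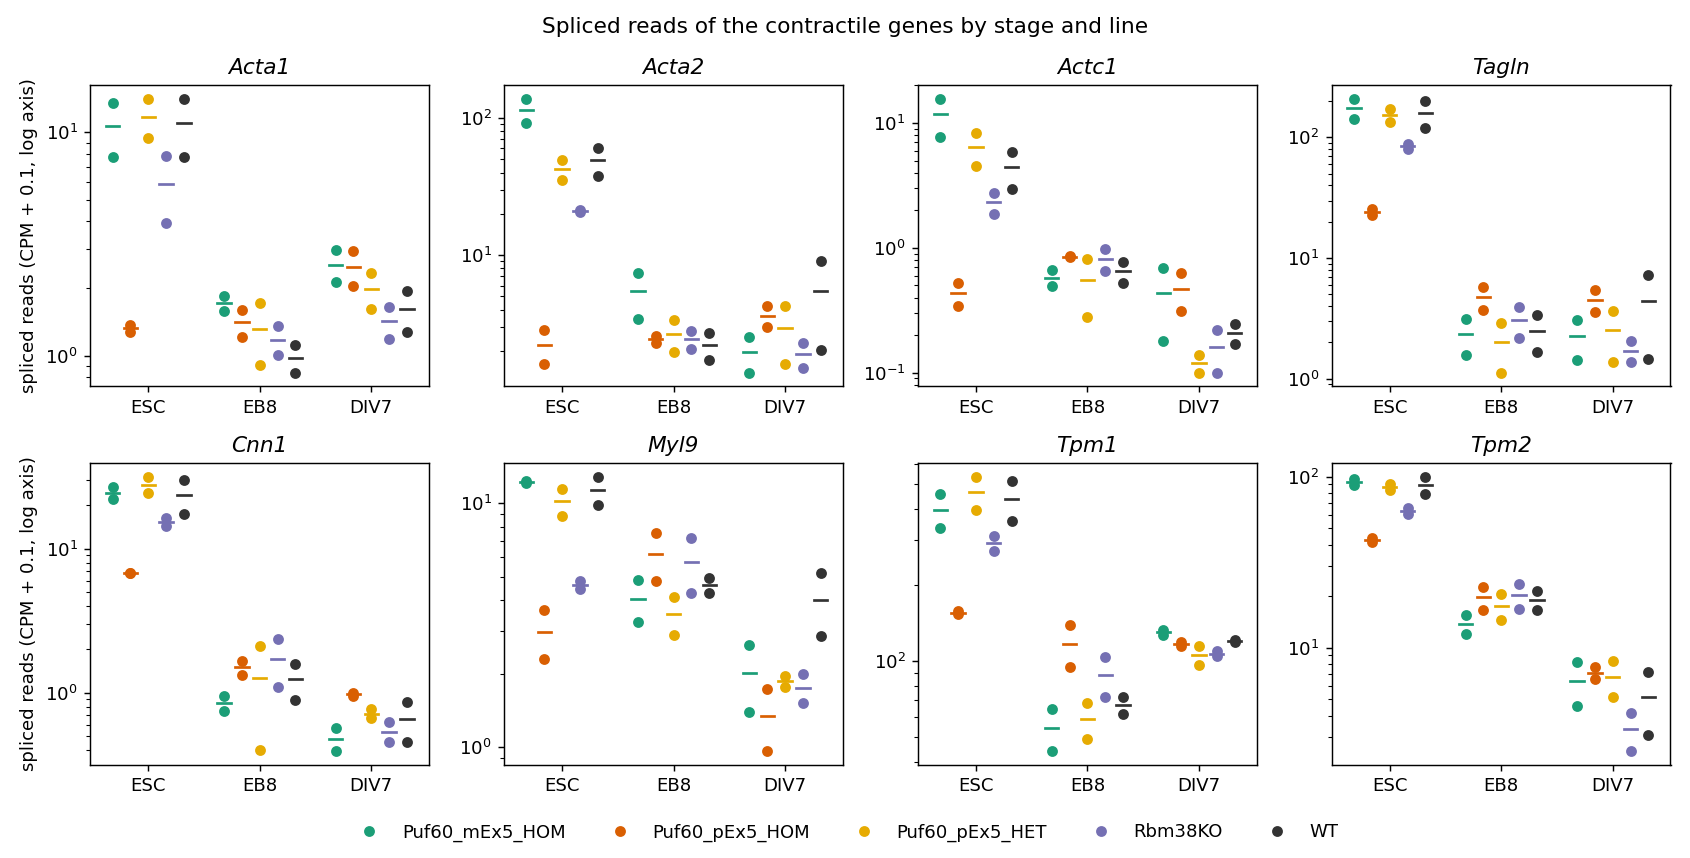
Spliced-read CPM plus 0.1 (log axis) for 8 members at ESC, EB8 and DIV7 in each line, with WT at the right of each stage. Dots are libraries (2 per group) and bars their means. At ESC the Puf60.pEx5.HOM libraries sit below those of every other line for each gene shown, and at EB8 and DIV7 its values lie among or near those of the other lines.

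In WT all 8 measurable members were lower at EB8 than at ESC by at least 2-fold with an adjusted p under 0.05 in limma, where 18.2% of 13931 genes tested were lower; this contrast shares the WT ESC libraries with those that drew attention to the members and is a description. The log2 differences were -5.56 for Tagln, -3.99 for Acta2, -3.49 for Cnn1, -2.67 for Tpm1, -2.61 for Acta1, -2.19 for Tpm2, -1.72 for Actc1 and -1.13 for Myl9, with a median over the 8 of -2.64 against 0.03 for all genes tested. The summed reads of Actg2 gave -1.05, with quantile scaling -0.98 and with scaling to total reads -0.57. Myl9 missed the fold threshold with scaling to total reads, at -0.71, and without WT replicate B at ESC, at -0.96.

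The next step, WT DIV7 against EB8, was not used in choosing the members and was tested. The tropomyosins moved in opposite directions. Tpm2 averaged 5.05 ± 2.94 CPM in WT at DIV7 and 18.9 ± 3.42 CPM in WT at EB8 (SD, n = 2 each), a log2 difference of -1.80 ± 0.31 (SE) with an adjusted p of 3.68e-05 in limma. Tpm1 averaged 120.3 CPM at DIV7 and 66.8 CPM at EB8, a log2 difference of 0.84 ± 0.23 with an adjusted p of 0.00307, short of the 2-fold threshold. Tpm2 was thus the 1 of 8 measurable members called, where 12.7% of genes tested were lower. The other contractile genes were low at both stages: Acta2 differed by 0.81 (adjusted p = 0.135), Tagln by 0.41 (0.482), Cnn1 by -0.45 (0.187) and Myl9 by -0.21 (0.519), in limma. For Acta2 and Tagln 1 library decided this: WT replicate A at DIV7 had 8.91 and 7.20 CPM and replicate B 1.95 and 1.36. Without replicate B the log2 differences were 1.69 and 1.32. Replicate B on its own showed no rise. For Acta2 it lay between the WT EB8 libraries, at 1.62 and 2.63 CPM, and for Tagln below both, at 1.56 and 3.25 CPM.

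Actg2 could not be measured from spliced reads. Between 99.33 and 100% of its junction reads in a stage's libraries lay in a single junction, chr6:83523279-83526805, with 2295 to 2855 reads a library at ESC, while its other 7 junctions together held 2 to 17. The 60 bases around that junction differ from both Actb and Actg1, the cytoplasmic actins, at 6 positions, with a shared run of 24 bases, and the summed Actg2 level followed Actb over the 30 libraries (Pearson r = 0.981, a description). Another Actg2 junction, 5 mismatches from Actb with a shared run of 23 bases, held 9 reads over the ESC libraries. The origin of the reads in the single junction was not tested. Because they made up nearly all Actg2 reads, the summed Actg2 CPM was left out of the counts and medians over the 8 measurable members. Its other 7 junctions, replicates A and B added, held 29 reads in Puf60.mEx5.HOM, 5 in Puf60.pEx5.HOM, 8 in Puf60.pEx5.HET, 10 in Rbm38KO and 15 in WT at ESC. The authors' RPKM for Actg2 at ESC were 0.4 in Puf60.mEx5.HOM, 0.07 in Puf60.pEx5.HOM and 0.21 in WT. For Acta1 the later stages were affected most: its last junction, 5 mismatches from Actb, held 254 reads over the DIV7 libraries against 74 in its first 3 junctions, and 434 against 1051 at ESC. The 8 junctions of Acta2 held 72 to 137 reads each over the DIV7 libraries, with no such excess. Its last junction was among them, with 7 mismatches to Actb and a shared run of 26 bases.

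At ESC the Puf60.pEx5.HOM line held the lowest level of all 8 measurable members. Acta2 had 2.75 and 1.51 CPM in Puf60.pEx5.HOM, against 37.9 and 60.8 CPM in WT. The 2 Acta2 values of that line were the lowest of the 10 ESC libraries, and those of Puf60.mEx5.HOM, 91.6 and 138 CPM, were the highest. Acta1 had 1.27 and 1.18 CPM in Puf60.pEx5.HOM, against 7.68 and 14.1 CPM in WT, and Actc1 had 0.241 and 0.425 CPM against 2.84 and 5.78 CPM in WT. Thus the striated alpha-actins were lower too, and neither overlapped WT. Tagln had 25.5 and 22.5 CPM in Puf60.pEx5.HOM, against 119 and 200 CPM in WT. Cnn1 had 6.71 and 6.71 CPM in Puf60.pEx5.HOM, against 17.3 and 29.9 CPM in WT, and Myl9 had 3.55 and 2.19 CPM against 9.70 and 12.7 CPM in WT. The actin-binding genes and the light chain were thus lower along with the actins. Tpm1 had 157 and 154 CPM in Puf60.pEx5.HOM, against 356 and 515 CPM in WT, and Tpm2 had 43.9 and 41.6 CPM against 79.6 and 99.5 CPM in WT. The tropomyosins differed least of the 8 on the log2 scale.

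On the log2(CPM + 1) scale these differences were -4.00 ± 0.47 (SE) for Acta2, -2.64 ± 0.51 for Tagln, -2.36 ± 0.30 for Acta1, -1.94 ± 0.30 for Actc1, -1.67 ± 0.28 for Myl9, -1.63 ± 0.30 for Cnn1, -1.46 ± 0.23 for Tpm1 and -1.04 ± 0.31 for Tpm2. By the call used for all genes, 8 of 8 measurable members were lower, where 1.49% of genes tested were; the members were chosen on this contrast, so nothing is read from the count. The authors' deposited table gave log2 fold changes of -4.57 for Acta2, -4.15 for Actc1, -3.3 for Acta1, -2.72 for Tagln, -2.05 for Myl9, -1.84 for Cnn1, -1.32 for Tpm1 and -1.06 for Tpm2, with a false discovery rate under 0.05 for these 8 of 9 members, as for 8.55% of all genes. Actg2, at -1.6 in the authors' deposited table, was not under it. Tpm2 was the member nearest the fold threshold: with quantile scaling it was at -0.97, and without replicate B of WT at -0.88.

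The other lines at ESC lay nearer to WT. In Rbm38KO Acta2 had 21.4 and 20.5 CPM and Tagln 79.7 and 88.8 CPM, both below their WT values. All 8 measurable members had log2 differences below 0 in Rbm38KO, with a median of -0.75, led by Acta2 at -1.16 and Myl9 at -1.14. In Puf60.mEx5.HOM Acta2 and Actc1 were higher, with log2 differences of 1.21 ± 0.47 and 1.23 ± 0.30. Actc1 had 7.65 and 15.6 CPM in Puf60.mEx5.HOM, against 2.84 and 5.78 CPM in WT. In Puf60.pEx5.HET Acta2 had 35.03 and 49 CPM and Tagln 133.5 and 172 CPM. No test is read from these ESC differences, and by the call used for all genes 0 of 8 were past it in Puf60.mEx5.HOM, where 0.079% of genes tested were, in Puf60.pEx5.HET, where 0.0359% were, and in Rbm38KO, where 0.0359% were.

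**Figure D2:**
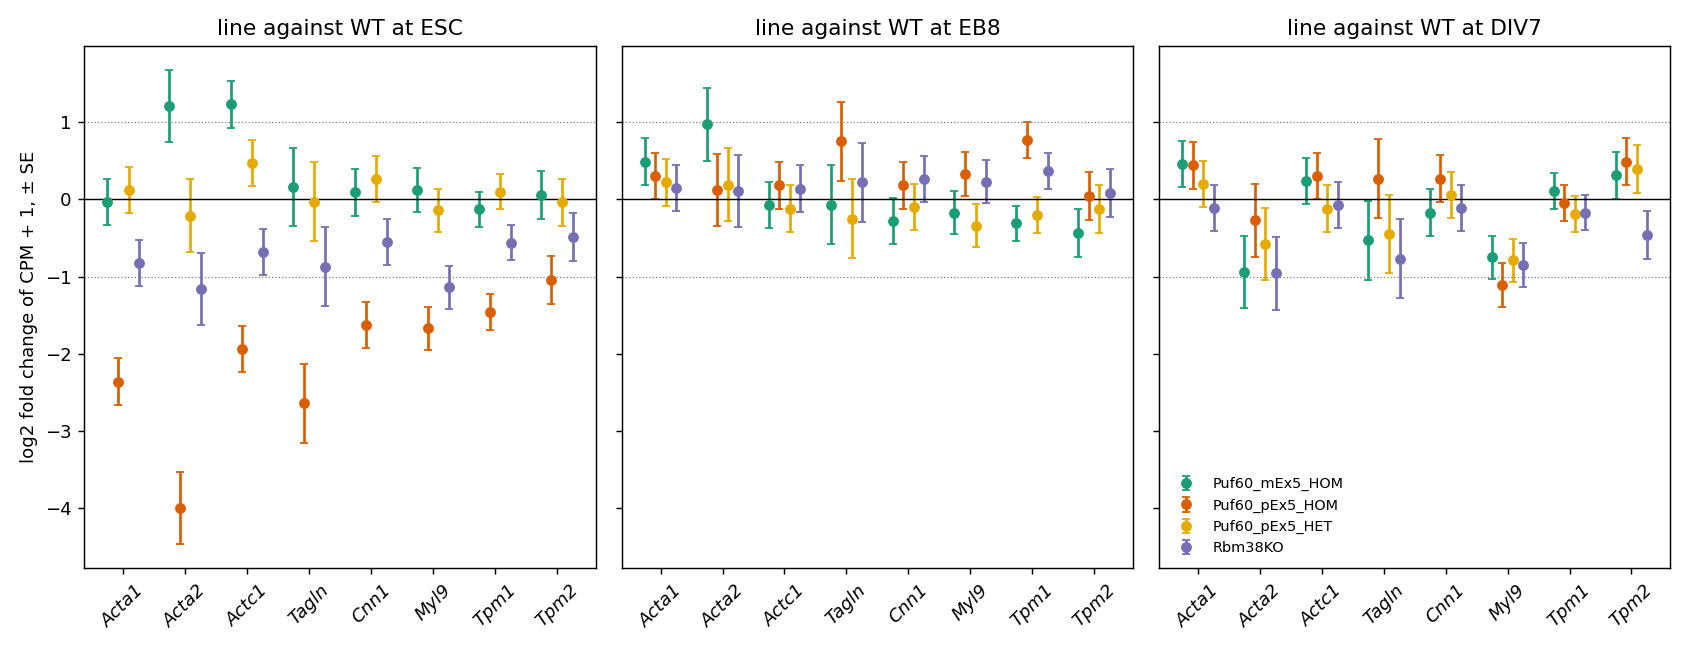
Log2 fold change of CPM + 1 against WT (points) with its SE (bars) for each edited line at ESC, EB8 and DIV7, with dotted lines at 2-fold. The Puf60.pEx5.HOM points at ESC lie between -1.04 and -4.00, while at EB8 the same genes lie between 0.04 and 0.77.

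Promoters were read because the members moved together at ESC. Of the 9 members 7 were matched by symbol in the RefSeq promoter table for GRCm38.p6 (250 bases before to 50 after each start), and Tagln and Actg2 were not. A CArG box, the serum response factor motif, was searched by its name's consensus, which reads the same on both strands, in the 250 bases before the start. It was found in 3 of the 7, Acta1, Actc1 and Myl9, and in 1.47% of the 32851 promoters in the table. A box or a stretch 1 base from it was found in 5 of the 7 and in 18.6% of all promoters. Stretches that hold them are given on the gene's strand, with the box in capitals for the first 3 and stretches 1 base from it in capitals for Acta2.
Acta1, chr8:123894814-123894873, minus strand: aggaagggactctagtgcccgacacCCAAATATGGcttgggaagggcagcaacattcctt
Actc1, chr2:114052888-114052947, minus strand: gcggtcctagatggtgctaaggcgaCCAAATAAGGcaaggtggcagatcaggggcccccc
Myl9, chr2:156775278-156775337, plus strand: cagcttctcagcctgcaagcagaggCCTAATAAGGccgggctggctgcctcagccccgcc
Acta2, chr19:34255383-34255472, minus strand: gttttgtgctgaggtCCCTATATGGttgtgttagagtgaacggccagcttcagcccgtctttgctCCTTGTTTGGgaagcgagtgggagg
A match describes these letters and no binding was measured. Members with an exact box and without one were both lower in Puf60.pEx5.HOM at ESC. The members were chosen on that contrast, so nothing about the box is read from this.

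At the later stages, whose line comparisons were tested, few member differences passed. At EB8 Tpm1 had 94.5 and 139 CPM in Puf60.pEx5.HOM, against 61.5 and 72.1 CPM in WT, a log2 difference of 0.77 ± 0.23 with an adjusted p of 0.0378 in limma. Its 2 values lay above both WT values, but the difference was under 2-fold. Tagln had 3.58 and 5.71 CPM in Puf60.pEx5.HOM, against 1.56 and 3.25 CPM in WT, a difference of 0.75 ± 0.51 (adjusted p = 0.427, limma). Limma called 0 of 8 measurable members in Puf60.pEx5.HOM at EB8, where 1.66% of genes tested were, and 1, Tpm1, had an unadjusted p under 0.05. The 8 log2 differences were above 0, from 0.04 ± 0.31 (SE) for Tpm2 to that of Tpm1, with a median of 0.24. The authors' deposited table gave Tpm1 a log2 fold change of 0.76 with a false discovery rate of 0.0124 there, the 1 member of 9 under 0.05 where 4.87% of genes were. Single libraries moved Tpm1 both ways in limma: it was at 1.05 (adjusted p = 0.0201) without Puf60.pEx5.HOM replicate A, and at 0.50 (adjusted p = 0.352) without its replicate B, 0.66 (adjusted p = 0.213) without WT replicate A and 0.89 (adjusted p = 0.101) without WT replicate B. With no filter on low genes its adjusted p was 0.0527 in limma, and with the median junction times the number of introns, a measure chosen after seeing the data, it was at 1.02 (adjusted p = 0.0483).

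In the other lines at EB8 no member was called. Acta2 had 7.37 and 3.35 CPM in Puf60.mEx5.HOM, against 1.62 and 2.63 CPM in WT, a log2 difference of 0.97 ± 0.47 (adjusted p = 0.176, limma). Its 2 libraries lay above both WT libraries but far apart. By limma 0 of 8 measurable members were called in Puf60.mEx5.HOM at EB8, where 1.64% of genes tested were, and 0 had an unadjusted p under 0.05. In Puf60.pEx5.HET the count by limma was 0 of 8, where 0.115% of genes tested were called, with 0 at an unadjusted p under 0.05. In Rbm38KO it was 0 of 8 by limma, where 0.0431% of genes tested were called, with 0 at an unadjusted p under 0.05. Tpm1 had 72.1 and 104 CPM in Rbm38KO at EB8 and a log2 difference of 0.37.

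At DIV7 Myl9 was the member that moved. It had 1.63 and 0.864 CPM in Puf60.pEx5.HOM, against 5.09 and 2.75 CPM in WT, from 46 and 23 reads in Puf60.pEx5.HOM and 143 and 75 in WT. The difference was -1.11 ± 0.28 on the log2 scale with an adjusted p of 0.0107 in limma, and both libraries lay below both WT libraries. It was the 1 of 8 measurable members called in this line at DIV7, where 1.69% of genes tested were lower. In the authors' deposited table Myl9 had a log2 fold change of -1.54 with a false discovery rate of 0.00694, the 1 member of 9 under 0.05 where 4.98% of genes were. The call rested on single libraries: without WT replicate A at DIV7 the difference was -0.76 (adjusted p = 0.189, limma), and without Puf60.pEx5.HOM replicate B it was -0.86 (adjusted p = 0.125, limma). Quantile scaling gave -0.98, just under 2-fold.

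The remaining lines were lower in Myl9 at DIV7 as well, without passing. Its log2 differences were -0.75 in Puf60.mEx5.HOM (adjusted p = 0.186), -0.79 in Puf60.pEx5.HET (adjusted p = 0.215) and -0.85 in Rbm38KO (adjusted p = 0.287), all by limma against the same WT libraries. All 8 libraries of the edited lines, at 0.864 to 2.52 CPM, lay below the lower WT library at 2.75 CPM. By limma 0 of 8 measurable members were called at DIV7 in Puf60.mEx5.HOM, where 0.395% of genes tested were, in Puf60.pEx5.HET, where 0.574% were, and in Rbm38KO, where 0.301% were. In each of these 3 lines 1 member, Myl9, had an unadjusted p under 0.05. Without WT replicate B at DIV7, Acta2 and Myl9 passed in Puf60.mEx5.HOM, at -1.82 (adjusted p = 0.0256) and -1.10 (adjusted p = 0.0483), and in Rbm38KO, at -1.84 (adjusted p = 0.0349) and -1.21 (adjusted p = 0.0475), in limma. Acta2 in WT at DIV7 was 8.91 CPM in replicate A and 1.95 CPM in replicate B, while the edited lines ranged over 1.29 to 4.18 CPM.

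The change of a line's effect between EB8 and DIV7 was tested directly. For Myl9 in Puf60.pEx5.HOM the effect at DIV7 minus that at EB8 was -1.44 ± 0.40 on the log2 scale with an adjusted p of 0.0241 in limma, from -1.11 at DIV7 and 0.33 at EB8. It was the 1 of 8 measurable members called, where 1.64% of genes tested were lower. Tpm1 in the same line gave -0.82 ± 0.33 (adjusted p = 0.118, limma). The Myl9 call was lost without any 1 of 5 libraries, with adjusted p of 0.0569 to 0.16 in limma: replicate A or B of WT at EB8, replicate A of WT at DIV7, and replicate B of Puf60.pEx5.HOM at either stage. By limma 0 of 8 measurable members were called for Puf60.mEx5.HOM, where 0.861% of genes tested were, for Puf60.pEx5.HET, where 0.0359% were, and for Rbm38KO, where 0.0359% were. At an unadjusted p under 0.05 there was 1 member in Puf60.mEx5.HOM, 0 in Puf60.pEx5.HET and 1 in Rbm38KO. Acta2 in Puf60.mEx5.HOM gave -1.91 ± 0.67 (adjusted p = 0.158), and without WT replicate B at DIV7 -2.79 (adjusted p = 0.026), in limma.

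Cell type markers moved with Myl9 in Puf60.pEx5.HOM at DIV7. Of all genes tested in Puf60.pEx5.HOM at DIV7, 0.854% were higher and 1.69% lower. Of 15 fibroblast and matrix genes 0 rose and 6 fell there (limma), with a list median of -1.35 against 0.04 for all genes. They included the collagen-binding proteoglycan gene Dcn at -2.06, the matrix protein gene Sparc at -2.35 and the growth factor receptor gene Pdgfra at -2.48. The list summed to 932 to 1590 CPM in Puf60.pEx5.HOM and 1890 to 4230 CPM in WT, with 0 of its genes at 0 in either group. In the other lines, where Myl9 was lower without passing, it summed to 2730 to 6400 CPM in Puf60.mEx5.HOM, 1700 to 2550 CPM in Puf60.pEx5.HET and 1870 to 1920 CPM in Rbm38KO. The lower fibroblast and matrix sum thus stood beside a lower Myl9 in Puf60.pEx5.HOM, while in Puf60.mEx5.HOM the sum overlapped WT and reached above it. Of 9 pluripotency genes 7 rose, where 0.854% of genes tested were higher, and 1 fell, among them Pou5f1 at 3.05, Dppa5a at 2.96 and Nanog at 2.29, and the list summed to 171 to 249 CPM in Puf60.pEx5.HOM and 65.8 to 67.9 CPM in WT. The part of these cells in the Myl9 difference was not tested. Of 13 smooth muscle contractile genes tested limma called 0 there, with summed levels of 270 to 302 CPM in Puf60.pEx5.HOM and 302 to 359 CPM in WT. In the same contrast the endothelium list had 1 gene higher and 3 lower of 9, the cardiac and mesoderm list 0 and 2 of 7, the astrocyte list 0 and 3 of 8, the neural crest list 0 and 1 of 6, the striated muscle list 2 and 0 of 16 and the TGF-beta and YAP list 1 and 1 of 12.

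Other genes of the contractile pathway were taken from lists in the same ESC contrast. In Puf60.pEx5.HOM against WT at ESC, 0.969% of genes tested were higher and 1.49% lower. Of 13 other smooth muscle genes 0 were higher and 2 lower: Cald1, the actin-binding caldesmon gene, at -1.60, and Tgfb1i1, a focal adhesion gene, at -1.37. The list's median was -0.39, its sum 905 to 917 CPM in Puf60.pEx5.HOM and 1130 to 1330 CPM in WT. Of 16 striated genes 2 were higher, Mybpc3 at 1.34 and Tnnt1 at 1.15, both of the sarcomere, and 1 lower, the giant sarcomere protein gene Ttn at -1.19. Of 16 non-muscle actomyosin genes 0 were called. Of 10 genes of the serum response factor pathway 1 was lower, Fhl2 at -1.53. Of 12 response genes of TGF-beta and YAP 4 were lower, among them Thbs1 at -1.84, Cyr61 at -1.69 and Tgfb2 at -1.39. These ESC values come from the contrast that chose the members and are a description.

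Markers of other cells in the same ESC contrast were as follows, beside 0.969% of genes tested higher and 1.49% lower. Of 15 fibroblast and matrix genes 4 were lower, led by the collagens Col1a1 at -2.65, Col1a2 at -2.21 and Col3a1 at -1.95, and of 7 cardiac and mesoderm regulators 1 was lower, the mesoderm factor T at -2.40. Of 8 astrocyte and radial glia genes 2 were lower, the intermediate filament genes Nes at -1.23 and Vim at -1.01. Of 10 neuron genes 1 was higher, Gad1 at 1.18. By limma 0 were called of the pluripotency, endothelium, pericyte and neural crest lists. The pluripotency list summed to 5800 to 5890 CPM in Puf60.pEx5.HOM and 4480 to 4660 CPM in WT. The part of these markers in the members' differences was not tested.

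Along the WT course many genes of any kind were called, so the counts of the wider pathway are read against the shares of all genes. In WT at EB8 against ESC 21.7% of genes tested were higher and 18.2% lower. Of 13 smooth muscle genes 3 were higher in that step, a share near that of all genes, Ppp1r12b at 2.67, Tgfb1i1 at 2.60 and the myosin light chain kinase gene Mylk at 1.23, and 5 were lower, led by Cnn2 at -2.59, Pdlim7 at -1.83 and Csrp2 at -1.77. Of 16 striated genes 0 were higher and 8 lower, led by the cardiac myosin gene Myh6 at -3.01 and Ttn at -2.69. Of 16 non-muscle genes 1 was higher, the neuronal transgelin gene Tagln3 at 4.02, and 9 lower, led by Myh9 at -2.92 and Tagln2 at -2.65. In WT at DIV7 against EB8 17.6% of genes tested were higher and 12.7% lower. There 0 of 13 smooth muscle genes rose and 4 fell, led by the muscle intermediate filament gene Des at -2.87, Tgfb1i1 at -2.59 and Smtn at -1.85. In that step the non-muscle list had 0 higher and 2 lower of 16, the striated list 2 and 2 of 16, and the fibroblast and matrix list 10 and 1 of 15. No list was tested against the shares of all genes.

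Some genes outside the list tracked the members over the 30 libraries, given as descriptions since the 3 stages and 5 lines are pooled in them. The closest genes by Pearson correlation of log2(CPM + 1) were Pdlim7 (0.977) and Ttn (0.975) for Tagln, Gbp2b (0.985) and Pdlim7 (0.985) for Cnn1, Itga3 (0.977) and Thbs1 (0.969) for Tpm1, Bst2 (0.983) and Tubb6 (0.982) for Tpm2, Cald1 (0.932) for Myl9, Lrrk2 (0.934) for Acta1, Gatb (0.901) for Actc1 and Cryab (0.882) for Acta2. Over the 10 ESC libraries alone, Acta2 was closest to the collagen gene Col3a1 (0.996), Ammecr1l (0.987), F3 (0.987), Eya1 (0.984) and Gpx3 (0.983). Among themselves the 8 measurable members correlated at 0.89 to 0.99 over the 10 ESC libraries. Over the 20 later libraries the same pairs ranged over -0.52 to 0.81, with Acta2 and Tagln at 0.68 and Tpm1 and Tpm2 at -0.49.

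The tropomyosin exons changed at different steps in the 2 genes. Inclusion is given as PSI, the percent of informative reads that include an exon, and a call required a difference of at least 10 points with an adjusted p under 0.05. In WT the Tpm1 upstream 76-nt exon was at 66.9 and 67.5 PSI at ESC, 67.2 and 69.7 at EB8, and 9.72 and 4.87 at DIV7. The Tpm1 downstream 76-nt exon was at 35.8 and 35.2 PSI at ESC, 37.6 and 31.7 at EB8, and 91.8 and 96.5 at DIV7. The Tpm1 pair was thus at similar values at ESC and EB8 and reversed at DIV7. The Tpm2 downstream exon averaged 52.7 PSI in WT at EB8 and 3.35 PSI in WT at ESC, while the Tpm2 upstream exon averaged 51 PSI at EB8 and 98 PSI at ESC. The Tpm2 pair thus shifted a step earlier, toward the same downstream position.

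These steps were tested in a weighted linear fit across 19601 events, 9 of them in Tpm1 or Tpm2, out of 369 events listed for the members. At EB8 against ESC in WT 4 of the 9 events were called, where 12.5% of all events were. The exons of a 76-nt pair share reads and count the same change in opposite senses, so the calls are not all separate. Tpm2's upstream exon differed by -47 points (adjusted p = 1.01e-06, limma), and its downstream exon by 49.4 points (adjusted p = 1.68e-06, limma). The 79-nt Tpm1 exon averaged 20.2 PSI at EB8 and 6.59 PSI at ESC (adjusted p = 5.38e-05, limma). The fourth was a 767-nt span holding the Tpm1 upstream exon, at 13.1 PSI at EB8 and 2.31 PSI at ESC (adjusted p = 0.00106, limma), and the difference was 7.1 points without WT replicate B at EB8. The Tpm1 upstream 76-nt exon was not called, at 68.5 PSI at EB8 and 67.2 PSI at ESC (adjusted p = 0.853, limma).

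At DIV7 against EB8 in WT 3 of the 9 events were called, where 16.6% of all events were. Both exons of the Tpm1 76-nt pair were among them and count the same change. The Tpm1 upstream 76-nt exon averaged 7.3 PSI at DIV7 and 68.5 PSI at EB8, a difference of -61.2 points (adjusted p = 6.08e-11, limma). The Tpm1 downstream 76-nt exon averaged 94.2 PSI at DIV7 and 34.6 PSI at EB8, a difference of 59.5 points (adjusted p = 1.43e-10, limma). The third was a 7587-nt span that ends at the Tpm1 distal last exon and holds the 79-nt exon, at 71.7 PSI at DIV7 and 8.37 PSI at EB8 (adjusted p = 3.67e-08, limma), from reads at 1 end of the span. Neuron genes moved at the same step, with 9 of 10 higher in WT at DIV7 than at EB8, where 17.6% of genes tested were. Their summed levels were 4350 to 5150 CPM at DIV7 and 1200 to 1340 CPM at EB8. Their part in the exon change was not tested.

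**Figure D3:**
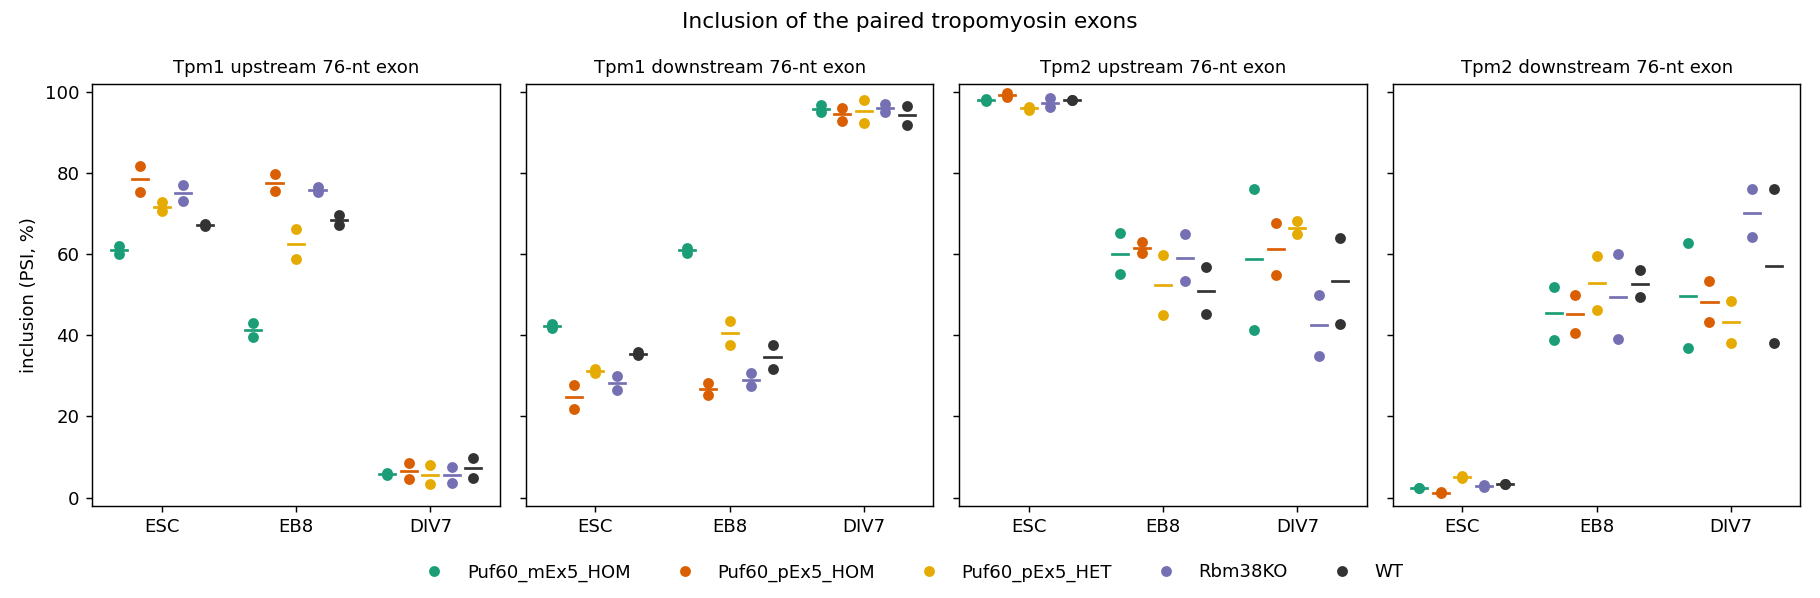
PSI of the upstream and downstream 76-nt exons of Tpm1 and Tpm2 in each library at ESC, EB8 and DIV7, by line with WT at the right of each stage. At DIV7 all 10 libraries hold the Tpm1 upstream exon at 3.29 to 9.72 PSI, and at EB8 the Puf60.mEx5.HOM libraries, at 43.1 and 39.7 PSI, sit below the others for that exon.

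Among the lines, the Tpm1 pair differed from WT in Puf60.mEx5.HOM at EB8. The upstream 76-nt exon was at 43.1 and 39.7 PSI in Puf60.mEx5.HOM, against 67.2 and 69.7 PSI in WT, a difference of -27 points with an adjusted p of 0.000712 (limma). The downstream 76-nt exon was at 61.5 and 60.4 PSI in Puf60.mEx5.HOM, against 37.6 and 31.7 PSI in WT, a difference of 26.4 points with an adjusted p of 0.00184 (limma). The 2 libraries of the line lay apart from those of WT and of every other line at that stage. The 2 exons share reads and count the same change in opposite senses. They were 2 of 9 member events called, where 1.14% of all events were, and in the fit over all stages the only member events called in the 8 comparisons of a line with WT at EB8 and DIV7, where 0.789% of all event tests were. The span to the distal last exon averaged 27.9 PSI in Puf60.mEx5.HOM and 8.37 PSI in WT (adjusted p = 0.0618, limma), and in a fit of the EB8 libraries alone, over 28068 events, it passed (adjusted p = 0.0266, limma). Without weights on reads neither exon passed, with adjusted p of 0.3 and 0.368 (limma), and with no range on mean PSI the downstream exon gave 0.0558.

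Puf60.pEx5.HOM lay on the other side of WT. The upstream exon was at 75.5 and 79.7 PSI in Puf60.pEx5.HOM at EB8, against 67.2 and 69.7 PSI in WT, a difference of 9.2 points (adjusted p = 0.143, limma). Limma called 0 of 9 member events there, where 3.13% of events were, and 1 had an unadjusted p under 0.05. In Rbm38KO at EB8 the upstream exon was at 75.3 and 76.5 PSI (adjusted p = 0.757 against WT, limma) and in Puf60.pEx5.HET at 58.9 and 66.1 PSI (adjusted p = 0.66, limma). In Rbm38KO limma called 0 of 9, where 0% of events were, with 1 at an unadjusted p under 0.05, and 0 of 9 in Puf60.pEx5.HET, where 0.0255% were, with 0 at an unadjusted p under 0.05. As a description, Puf60.mEx5.HOM and Puf60.pEx5.HOM lay on the same sides of WT at ESC. The upstream exon was at 61.9 and 60 PSI in Puf60.mEx5.HOM, 75.2 and 81.8 in Puf60.pEx5.HOM, and 66.9 and 67.5 in WT. Rbm38KO was above WT there as at EB8, at 73.2 to 77.1 PSI. Puf60.pEx5.HET was above WT at ESC, at 70.6 to 72.8 PSI, but below WT at EB8. These ESC values are a description and no test is read from them. By the call used for all events, the Tpm1 upstream 76-nt exon passed in Puf60.pEx5.HOM at ESC, at 11.3 points (adjusted p = 0.0489, limma). It was 1 of 9 member events called there, where 347 of 19601 events were. In a fit of the ESC libraries alone its adjusted p was 0.0762 (limma), short of the call. The authors' deposited splicing table marks events as changed against WT, under criteria not given in the sources used here. Both Tpm1 76-nt exons were marked in the authors' deposited table at ESC in all 4 lines, where 0.867 to 1.45% of events were, and at EB8 in Puf60.mEx5.HOM, where 1.16% were, and in Puf60.pEx5.HOM, where 13% were. At EB8 that table also marked the upstream one in Rbm38KO, the Tpm2 pair and the downstream 126-nt exon in Puf60.pEx5.HOM, and the span to the distal last exon in all lines but Rbm38KO. In Puf60.mEx5.HOM the authors' deposited table further marked the 79-nt exon at ESC, the 126-nt pair at ESC and DIV7, and a Tpm2 intron at DIV7.

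Neuron markers moved with the Tpm1 exon at EB8. Of 10 neuron genes 2 rose in Puf60.mEx5.HOM, where 164 of 13931 genes tested did, Gad1 at 1.41 and Rbfox3 at 1.02. The list median was 0.76, and the list summed to 1890 to 2130 CPM in that line and 1200 to 1340 CPM in WT. In Puf60.pEx5.HOM 2 fell, where 201 of 13931 genes tested did, Slc17a6 at -1.24 and Rbfox3 at -1.15. The list median there was -0.72 and the sum 764 to 910 CPM. The sums were 1610 to 1700 CPM in Puf60.pEx5.HET and 839 to 1140 CPM in Rbm38KO and 0 of the 10 genes were at 0 in these groups. The part of neuronal content in the exon difference was not tested.

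At DIV7 every line used mostly the downstream Tpm1 exon. The upstream 76-nt exon of Tpm1 was at 5.56 and 6.0 PSI in Puf60.mEx5.HOM, 4.72 and 8.57 in Puf60.pEx5.HOM, 3.29 and 8.09 in Puf60.pEx5.HET, 3.73 and 7.51 in Rbm38KO, and 9.72 and 4.87 in WT, from 668 to 909 reads a library. These groups overlapped. At DIV7 limma called 0 of 9 member events in Puf60.mEx5.HOM, where 0.194% of events were, in Puf60.pEx5.HOM, where 1.8% were, in Puf60.pEx5.HET, where 0.0204% were, and in Rbm38KO, where 0% were. At an unadjusted p under 0.05 there were 2 in Puf60.mEx5.HOM, the 126-nt pair, and 0 in each of the other 3 lines. The downstream 126-nt exon averaged 82.3 PSI in Puf60.mEx5.HOM and 93.2 PSI in WT at DIV7 (adjusted p = 0.315, limma), a pair that the authors' deposited splicing table marks as changed there. The Tpm2 pair at DIV7 rested on few reads, 20 to 80 a library for its upstream exon, which ranged from 34.9 to 76 PSI over the 10 libraries.

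Both ends of Tpm1 changed along the course. The share of transcripts read from the upstream start was taken as reads of the junction after the downstream 126-nt exon in percent of those of the next junction. In WT it was 68.4 and 77.5% at ESC, 47.5 and 44.2% at EB8, and 17.4 and 9.19% at DIV7. Reads to the distal last exon, in percent of the junction before it, were 82.0 and 90.0% in WT at ESC, 62.5 and 48.3% at EB8, and 25 and 11.1% at DIV7. Over all lines the distal share lay between 77.9 and 93.4% at ESC, between 32.9 and 63.7% at EB8, and between 8.38 and 25% at DIV7, so the stages did not overlap. In Puf60.pEx5.HOM the upstream share lay on the same side of WT as the level of Tpm1 at ESC and at EB8. It was 36.5 and 37.7% in Puf60.pEx5.HOM at ESC, against 68.4 and 77.5% in WT, and 62.2 and 66.6% in Puf60.pEx5.HOM at EB8, against 47.5 and 44.2% in WT. In Puf60.mEx5.HOM at EB8 it was 32.1 and 23.1%. No test was run on these shares, which are descriptions. The level of Tpm1 sums all its junctions, those near the upstream start among them, so share and level are not independent.

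**Figure D4:**
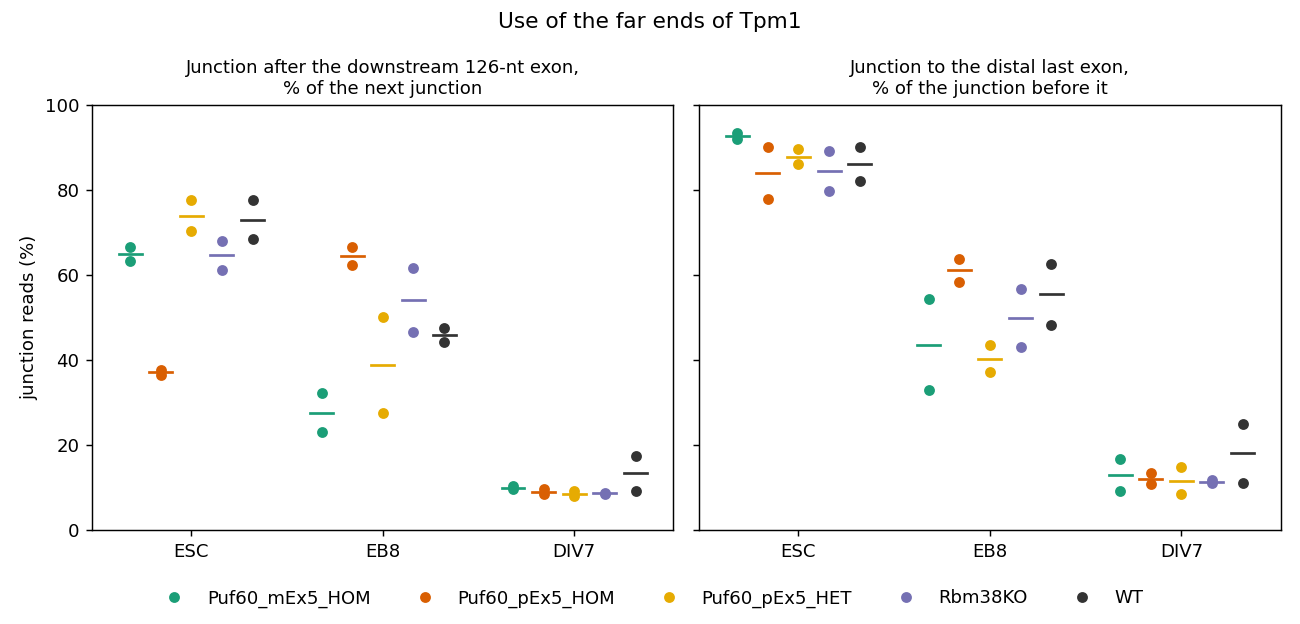
Tpm1 junction shares in percent for each library by stage and line, with WT at the right of each stage. One panel gives reads of the junction after the downstream 126-nt exon as a share of the next junction, the other reads to the distal last exon as a share of the junction before it, and both are lowest at DIV7, at 7.93 to 17.4% and 8.38 to 25%.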

How the data were processed

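The 30 libraries were made with a stranded mRNA kit altered for longer inserts, per the labels' protocols. Salmon 0.14.1, edgeR and the build mm10 are listed in the submitters' processing notes, without roles. The authors deposited RPKM per gene and group, log2 fold changes, p-values and false discovery rates for each line against WT, group inclusion values (a score on a percent-like scale), and a vast-tools table with PSI as a percent per library and strings holding the reads. Of the columns, 2 that carry the same group name were not used.

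Junction reads of 189118 introns were summed per gene, scaled by median of ratios, and tested as log2(CPM + 1) in limma 3.58.1 (R 4.3.3, trend and robust) over 15 group means, for 13931 genes with at least 1 CPM in 2 libraries. Calls needed at least 2-fold and a p under 0.05 after Benjamini-Hochberg adjustment. Events with 10 reads in every library and a mean PSI of 5 to 95 were fitted on log2((inclusion + 1)/(exclusion + 1)) in a limma-type fit, weighted by reads and an over-dispersion of 0.00309, with a call at 10 points. A first, biased estimate of the over-dispersion was corrected after its results had been seen.

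The members, the 13 gene lists and the naming rule (members, their events with a range of group PSI of at least 10 points, the 3 genes most like each member, up to 3 called genes per list) were chosen with earlier results of these data known. Alternatives covered scaling, pseudocount, filters, weights, separate fits, each library left out and a replicate block. Same-lettered ESC libraries deviated together in 10 of 10 pairs of lines (r 0.32 to 0.53). At EB8 5 and at DIV7 4 of 10 pairs passed an r of 0.1. The main fits did not pair libraries at any stage, so their ESC values leave this pairing out. Only the replicate block took it into account. On simulated data for Puf60.pEx5.HOM at DIV7 (13843 genes) the test called 56% of genes changed by 1 on the log2 scale and 96% at 1.5. The changes were put only in genes well expressed over most libraries, at a fixed dispersion of 0.03. Most members were low at DIV7, so these rates do not carry over to them. For Puf60.mEx5.HOM at EB8 (18968 events, over-dispersion 0.003) the splicing test called 34% of changes of 15 points and 80% of 20. With an over-dispersion of 0.001 it called 40% and 74%, and with 0.01 it called 8% and 24%. The changes were put only in events of intermediate mean PSI, and each event had the same PSI at all stages otherwise. The Tpm1 and Tpm2 exons moved between stages, so these rates need not carry over to them.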

Additional observations from a re-analysis of the deposited data

Results flagged for a closer look

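The effect of Puf60.pEx5.HOM on Myl9 differed between stages by a test of the difference itself, at -1.44 on the log2 scale for DIV7 minus EB8 (adjusted p = 0.0241, limma, with 0.00626 to 0.16 over the alternatives), with both DIV7 libraries below and the EB8 libraries at 4.69 and 7.48 CPM in Puf60.pEx5.HOM against 4.20 and 4.85 CPM in WT.

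In 6 gene and line combinations every library of a line lay above both WT libraries at a later stage and below them at ESC. These were 6 of 32 combinations of 8 measurable members and 4 lines, where 7.68% of all gene and line combinations did the same, and 5 of them were in Puf60.pEx5.HOM, where 11.6% of genes tested did. The members were chosen for low values at ESC, so nothing is read from these counts, and the differences between stages were not tested. In Puf60.pEx5.HOM, Acta1 had log2 differences from WT of -2.36 at ESC, 0.30 at EB8 and 0.44 at DIV7, and Actc1 of -1.94 at ESC, 0.18 at EB8 and 0.30 at DIV7. Tagln was at 0.75 at EB8 and -2.64 at ESC, Cnn1 at 0.27 at DIV7 and -1.63 at ESC, and Tpm1 at 0.77 at EB8 and -1.46 at ESC. In Rbm38KO, Tpm1 was at 0.37 at EB8 and -0.56 at ESC. In that last case the lower Rbm38KO library and the higher WT library were both at 72.1 CPM at EB8. Acta1 and Actc1 were under 3 CPM in all these later libraries. For Acta1 the last junction held 254 reads over the DIV7 libraries, against 74 in its first 3 junctions. The part of that junction in its DIV7 difference was not tested.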

How the results depend on the processing

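Direction was followed through the alternatives for the Myl9, Tpm1 and Tpm2 level differences and the Tpm1 and Tpm2 events, and none of these was reversed. It was not followed in this way for the other members. Of the counts of members called, 197 values kept within 1.5 times their original and 19 did not. With quantile scaling 0 members were called in Puf60.pEx5.HOM at DIV7, and with the replicate block 1 was called in Puf60.mEx5.HOM at ESC, a description; the block changed no other member's call. With the median junction, an alternative chosen after seeing the data, 1 was called in Puf60.pEx5.HOM at EB8 and 2 in WT at DIV7 against EB8. For the lines' splicing at EB8 and DIV7, 1 event was called with no range on mean PSI and 0 with no weights, against 2. Weights from reads alone, also chosen after seeing the data, changed none of the splicing counts by more than 1.5 times. Leaving out single libraries gave 7 to 8 members in Puf60.pEx5.HOM at ESC, 0 to 1 in Puf60.mEx5.HOM at ESC and in Puf60.pEx5.HOM at EB8 and DIV7, 0 to 2 in Puf60.mEx5.HOM and in Rbm38KO at DIV7 and for effects at DIV7 minus EB8, 1 to 3 for WT at DIV7 against EB8, 8 to 9 for WT at EB8 against ESC (Actg2 included, called in no other comparison), 2 to 3 events for the lines and 3 to 4 for each WT step. Where 1 library was left the others' spread stood in for its own. Scaling to total reads moved the median of all genes to 0.42 for WT at EB8 against ESC. The causes were not tested. Depth limits Acta1, Actc1, Cnn1 and Tpm2 exons after ESC.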
